A study of Rattus norvegicus with 18 samples.

Results

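The 10 genes described here, Fos, Fosb, Jun, Junb, Jund, Egr1, Egr2, Atf3, Ier2 and Dusp1, are immediate early response genes. They were taken by gene symbol, with no measured value in the rule, and each was found once in the table of each week, 10 of 30643 genes. Cells carrying CD11b/c, an integrin of monocytes, macrophages and other myeloid cells, were sorted with magnetic beads from the digested knee synovium of male, wild type Sprague Dawley rats. Surgery was done at 12 weeks of age, and the synovium was taken 4 or 12 weeks later. In the OA groups the joint was opened and both the medial meniscotibial ligament and the anterior cruciate ligament were cut, while in the sham groups the joint was opened and nothing was cut. The 4-week groups held 5 OA and 5 sham libraries, each from a pool of 4 rats, and the 12-week groups held 4 OA and 4 sham libraries, each from a pool of 3 rats. All groups shared the arthrotomy, the digestion and the sort, so sham libraries came from operated joints, and a pool does not show how its rats differed.

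Immediate early genes are transcribed within minutes of a stimulus, before any new protein is made. Growth factors, cytokines, mechanical load and stress activate MAP kinases, which phosphorylate factors already bound at these promoters, such as the ternary complex factors beside SRF on the CArG box and CREB on the cyclic AMP response element. Fos and Fosb pair with Jun, Junb or Jund as the transcription factor AP-1, and Atf3 is a related factor of the same leucine zipper class. Egr1 and Egr2 are zinc finger factors, and Dusp1 is a phosphatase that switches MAP kinases off again. In macrophages these genes respond to inflammatory signals, and they also respond to the digestion of a tissue into single cells. No library was made without digestion, so RNA present in the joint and RNA made during handling cannot be told apart.

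The promoters are shown so that the elements described above can be looked for in them. RefSeq promoter sequences of the assembly GRCr8 were found for 7 of the 10 genes, and Fos, Jun and Atf3 had no entry. That assembly is not the one the reads were aligned to. Each line gives the 250 bases before the annotated start, with capitals marking a CArG box (CC, then 6 bases of A or T, then GG), the cyclic AMP response element TGACGTCA or its core TGACGT, and the zinc finger site GCGNGGGCG, on either strand.
Dusp1, chr10:17184603-17184852, plus strand: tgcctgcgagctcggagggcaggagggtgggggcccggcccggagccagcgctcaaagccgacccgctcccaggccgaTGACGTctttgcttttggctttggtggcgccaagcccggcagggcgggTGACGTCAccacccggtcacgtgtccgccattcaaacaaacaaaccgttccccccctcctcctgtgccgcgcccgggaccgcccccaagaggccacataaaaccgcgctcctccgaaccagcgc
Jund, chr16:18769772-18770021, minus strand: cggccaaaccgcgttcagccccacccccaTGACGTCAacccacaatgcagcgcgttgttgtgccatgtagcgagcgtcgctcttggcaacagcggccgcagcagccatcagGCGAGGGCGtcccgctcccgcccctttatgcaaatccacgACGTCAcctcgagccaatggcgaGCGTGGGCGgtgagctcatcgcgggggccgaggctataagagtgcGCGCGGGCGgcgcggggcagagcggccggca
Egr1, chr18:26736828-26737077, plus strand: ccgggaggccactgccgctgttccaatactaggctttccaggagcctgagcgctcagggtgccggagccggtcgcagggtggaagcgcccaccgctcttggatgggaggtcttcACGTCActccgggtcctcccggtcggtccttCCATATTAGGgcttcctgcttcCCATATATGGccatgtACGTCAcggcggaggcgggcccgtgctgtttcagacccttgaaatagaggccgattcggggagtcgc
Junb, chr19:40080876-40081125, plus strand: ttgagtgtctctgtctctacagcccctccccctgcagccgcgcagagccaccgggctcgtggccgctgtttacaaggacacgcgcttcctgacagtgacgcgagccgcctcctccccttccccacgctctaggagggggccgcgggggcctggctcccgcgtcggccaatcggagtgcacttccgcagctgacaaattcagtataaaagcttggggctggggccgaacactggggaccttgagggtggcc
Ier2, chr19:40399123-40399372, plus strand: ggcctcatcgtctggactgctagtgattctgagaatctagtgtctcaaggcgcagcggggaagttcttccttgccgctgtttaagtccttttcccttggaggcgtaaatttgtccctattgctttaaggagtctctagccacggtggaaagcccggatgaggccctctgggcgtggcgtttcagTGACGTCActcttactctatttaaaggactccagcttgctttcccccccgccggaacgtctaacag
For Egr2 and Fosb the annotated start lies inside the annotated gene, so only a stretch of 30 bases around the CArG box of Egr2 is shown. Its end cuts off the TGACGT core found at 67 bases before the start of Egr2, which therefore has no capitals.
Egr2, chr20:21054505-21054534, minus strand: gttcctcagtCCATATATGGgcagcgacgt

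A CArG box was found in 2 of the 7 windows, at 2 places in Egr1, at 105 and 83 bases before the start, and once in Egr2, at 83 bases before the start. Of 33465 RefSeq promoter windows of the same length, 1.50% held one. TGACGTCA was found in 3 of the 7, Dusp1 at 124 bases, Jund at 221 bases and Ier2 at 66 bases before the start, against 1.59% of all windows. Its core TGACGT, which also lies within every TGACGTCA, was found in 5 of the 7 against 6.95%. The AP-1 site TGANTCA was in 0 of the 7 against 6.34%, TATAAA was in 2 of the 7, Junb and Fosb, against 12.9%, and GCGNGGGCG was in 1 of the 7, Jund, against 4.29%. A match describes these letters only, and nothing about binding was measured.

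Values are normalized reads, that is reads per gene divided by a size factor for the library, set within each week. Libraries held 4662344 to 17235069 reads at 4-weeks, the fewest in sham replicate 3, and 10976114 to 18080503 at 12-weeks. All 15 macrophage and monocyte markers were measured in every library, with a summed level of 153793 to 185130 normalized reads at 4-weeks and 168764 to 242410 at 12-weeks. RNA of other cells was also there, with summed levels of 47195 to 111806 at 4-weeks for 8 fibroblast markers and 28504 to 39619 for 5 endothelial markers, while 4 B cell markers summed to at most 85.9. The 8 neutrophil markers, of cells that also carry CD11b, summed to 10870.3 and 12295 in OA replicates 1 and 3 at 4-weeks, against 1244 to 5036 in the other 8 libraries of that week and 1122 to 4396 at 12-weeks. In such bulk samples, fewer cells of a type and less RNA per cell cannot be told apart.

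All of the immediate early genes but Egr2 were among the genes with most reads. Together the 10 genes took 0.886% to 1.18% of the reads of a library at 4-weeks and 1.05% to 1.43% at 12-weeks. Ranked by mean normalized reads, Fos stood at 11 of all genes at 4-weeks and 9 at 12-weeks, and in single libraries at 8 to 14 and 5 to 13. Dusp1 followed at 28 and 21, Jun at 42 and 45, Fosb at 57 and 41, Junb at 67 and 61, and Atf3 at 96 and 71. Egr1 ranked 216 and 139, Ier2 249 and 190, Jund 431 and 368, and Egr2 4367 and 3244. Thus 6 of the 10 were among the 100 genes with most reads at each week and 9 among the 500. Reads were not divided by transcript length, so these ranks order reads and not transcripts.

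**Figure D1:**
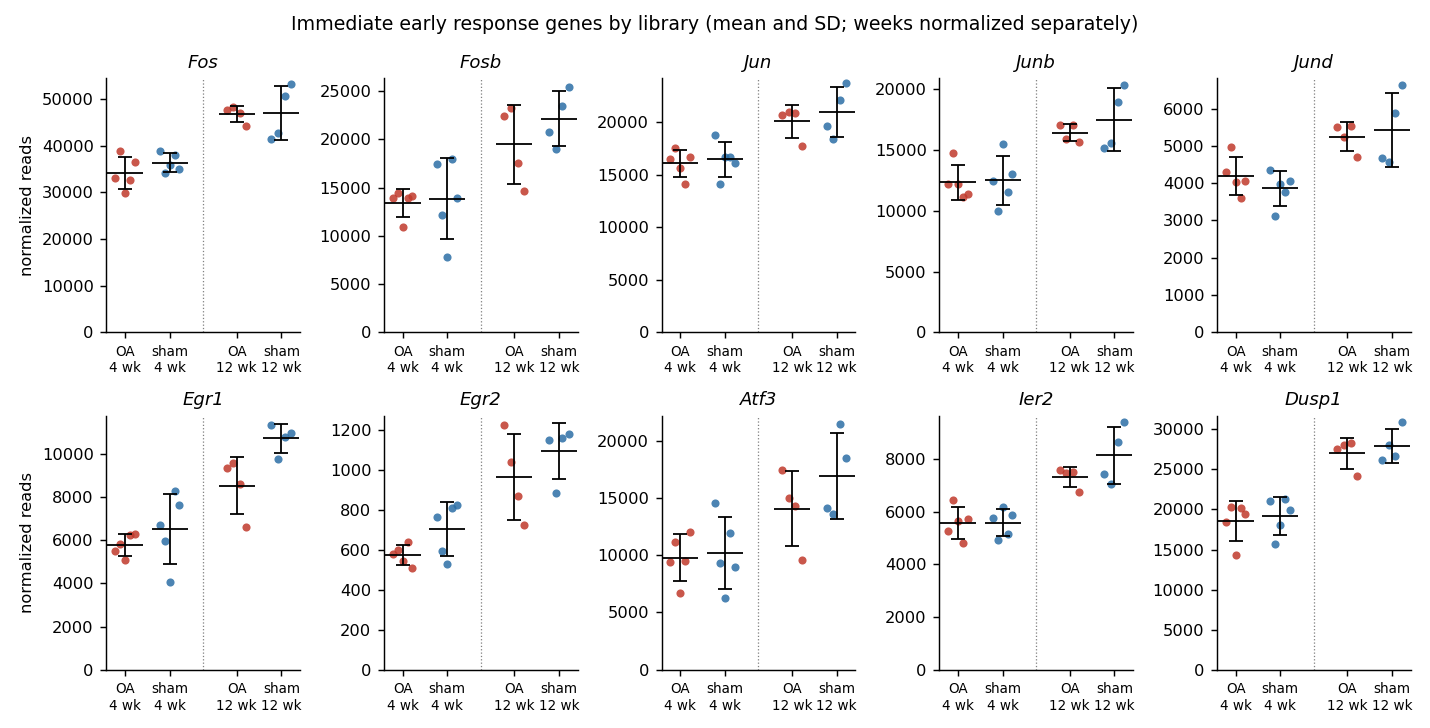
Normalized reads (vertical axis from 0) of each gene in each library, by group, with points in order of replicate number; black bars give the mean and SD of 5 libraries per group at 4 weeks and 4 at 12 weeks. OA (red) and sham (blue) overlap for each gene and week except Egr1 at 12 weeks, where OA libraries reach 9572 and sham libraries start at 9769.

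OA was compared with sham within each week by limma on log2(normalized reads + 1), and a gene was called at a log2 difference of at least 0.5 in either direction with an adjusted p-value under 0.05. By this rule 0 of the 10 genes were called at 4-weeks and 0 at 12-weeks, against 0% of all 14861 genes tested at 4-weeks and 0% of all 14666 at 12-weeks. At an unadjusted p under 0.05, limma gave 0 of the 10 at 4-weeks (7.92% of all genes) and 1 at 12-weeks, Egr1 (12.4% of all genes). On the recovered reads, edgeR and DESeq2 also called 0 of the 10 at both weeks. Both gave 1 of the 10 under an unadjusted p of 0.05 at each week, Egr2 at 4-weeks and Egr1 at 12-weeks. By edgeR the shares at that limit were 8.09% of 14861 genes and 12.5% of 14666. By DESeq2 they were 9.08% of the 29615 genes with a p and 6.65% of 28433, so the tools' shares are over different genes. Of genes with an adjusted p, DESeq2 called 0.159% of 16978 at 4-weeks and 0.695% of 14101 at 12-weeks. The OA and sham libraries overlapped for all 10 genes at 4-weeks (1.87% of all genes did not overlap, 0.693% with OA lower) and for 9 at 12-weeks, all but Egr1 (6.29% of all genes did not overlap). The median log2 difference over the 10 genes was -0.033 at 4-weeks, where that of all genes was 0.028, and -0.11 at 12-weeks, where that of all genes was -0.011.

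The 95% intervals bound how large a difference could have been missed. At 4-weeks the interval of 9 of the 10 genes lay within 0.5 of 0 on the log2 scale, the exception being Egr2, against 62.8% of all genes. At 12-weeks that held for 6 of the 10, all but Fosb, Egr1, Egr2 and Atf3, against 62.3% of all genes. The values were below 0 for 8 of the 10 genes at 4-weeks (42.9% of all genes) and for 9 of the 10 at 12-weeks (52.5% of all genes). With the reads rescaled by TMM, 5 of the 8 negative values at 4-weeks turned positive. The median of all genes also rose with this scaling, from 0.028 to 0.078. The 10 genes were measured in the same libraries, so a count of signs is not a count of independent results.

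**Figure D2:**
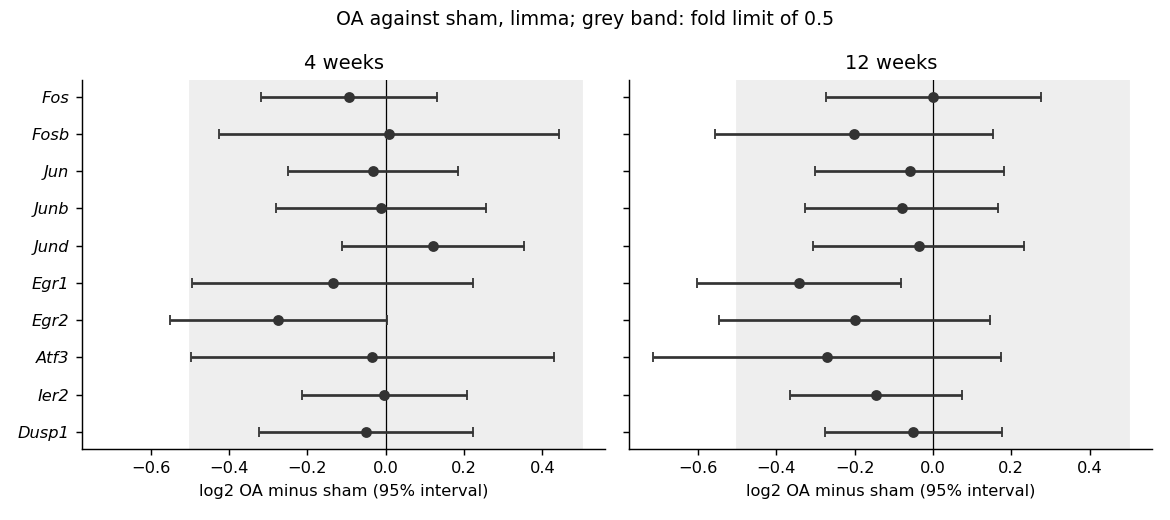
Log2 difference, OA minus sham, of each gene by limma, with its 95% interval, at 4 weeks (left) and 12 weeks (right); the grey band marks the fold limit of 0.5 on either side of 0. All points lie inside the band, and Egr1 at 12 weeks is the only one whose interval, -0.60 to -0.081, leaves out 0.

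Among the AP-1 proteins, Fos is the classic partner of Jun. At 4-weeks Fos measured 33014, 38726, 29759.7, 32694 and 36454 normalized reads in OA replicates 1 to 5 and 38763, 34062, 35724, 37985 and 34919 in sham. The groups overlapped, with 3 OA libraries below every sham library and sham replicate 1 just above OA replicate 2. The means were 34129.6 ± 3498 and 36291 ± 2009 (SD, n = 5 each), and the log2 difference was -0.093 (95% interval -0.32 to 0.13), with a limma adjusted p of 0.812. At 12-weeks Fos measured 47619.6, 48199, 47051 and 44231 in OA and 41492, 42672, 50639 and 53191 in sham. The OA libraries lay inside the range of sham, in which 2 libraries were low and 2 high, and the log2 difference was 0.00057 (95% interval -0.27 to 0.28). The means were 46775 ± 1759.5 in OA and 46999 ± 5792 in sham (SD, n = 4 each).

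Fosb, the second Fos protein in the list, also pairs with Jun proteins. It measured 13954, 14438, 10891, 13890.5 and 14088 in OA and 17457, 12147, 7805, 17990.3 and 13983 in sham at 4-weeks. Sham replicate 3 was lowest of the 10 libraries and sham replicates 1 and 4 were highest, so the OA libraries lay within the sham range. The log2 difference was 0.0089 with all libraries and -0.18 without sham replicate 3. At 12-weeks it measured 22434, 23242, 17598 and 14642 in OA and 20723, 18994, 23460.4 and 25445 in sham, and the log2 difference was -0.20 (95% interval -0.56 to 0.15). OA replicates 3 and 4 lay below every sham library and the others within their range. Leaving out each library in turn gave -0.29 to -0.073, the latter without OA replicate 4.

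Jun is the Jun protein that activates most strongly with Fos, whereas Junb and Jund often dampen or replace it. Jun measured 16521, 17550.2, 15619, 14141 and 16716 in OA and 18830.5, 14129, 16697, 16699 and 16157 in sham at 4-weeks, and 20743, 20994, 20944 and 17736 and 19670.0, 18452, 22116 and 23718 at 12-weeks. All OA libraries lay within the sham range at 4-weeks, and OA replicate 4 alone fell below it at 12-weeks. The log2 differences were -0.033 (95% interval -0.25 to 0.18) and -0.059 (95% interval -0.30 to 0.18).

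Junb measured 12201, 14768, 12197, 11092 and 11397 in OA and 12454, 9998, 15488, 11535 and 12986 in sham at 4-weeks. Sham replicate 3, lowest for Fosb, was the highest library for Junb. At 12-weeks Junb measured 17068, 15914, 17016 and 15663 in OA and 15107, 15525, 18944 and 20342 in sham, and the OA libraries lay within the sham range. The log2 differences were -0.011 (95% interval -0.28 to 0.26) and -0.08 (95% interval -0.33 to 0.17).

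Jund, the Jun protein that resting cells usually hold, measured 4286, 4969.7, 4037, 3615 and 4054 in OA and 4358, 3131, 3980.5, 3769 and 4056 in sham at 4-weeks. The log2 difference, the highest of the 10 genes, was 0.12 (95% interval -0.11 to 0.35) with a limma adjusted p of 0.766, and 4 of the 5 OA libraries lay within the sham range. At 12-weeks Jund measured 5500.2, 5236, 5541 and 4707 in OA and 4662, 4570.4, 5869 and 6632 in sham, with the OA libraries inside the sham range and a log2 difference of -0.036 (95% interval -0.31 to 0.23).

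Egr1 and Egr2, which bind GC-rich sites and in myeloid cells take part in macrophage differentiation, had the lowest log2 differences of the list at 4-weeks. Egr1 measured 5528, 5828, 5068, 6268 and 6280.4 in OA and 6719, 5970.5, 4064, 8271 and 7633 in sham, a log2 difference of -0.14 (95% interval -0.49 to 0.22). The sham libraries stood on both sides of OA, with sham replicate 3 below every OA library and sham replicates 1, 4 and 5 above every one. Without sham replicate 3 the log2 difference was -0.30 (limma unadjusted p = 0.0111, adjusted p = 0.379). Leaving out each library in turn gave -0.30 to -0.040, with limma unadjusted p-values of 0.0111 to 0.808, under 0.05 in 1 of the 10 fits.

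Egr2 measured 580.3, 600.3, 545, 639 and 508 in OA and 764, 594, 527, 808 and 825 in sham at 4-weeks, with means of 574 ± 50.4 and 704 ± 135 (SD, n = 5 each). Sham replicates 1, 4 and 5 were above every OA library, and sham replicates 2 and 3 lay within the OA range. The log2 difference was -0.27 (95% interval -0.55 to 0.0036), with a limma unadjusted p of 0.0526 and adjusted p of 0.638. By edgeR the unadjusted p was 0.0168 and the adjusted p 0.577, by DESeq2 0.0263 and 0.354. Without sham replicate 3 the log2 difference was -0.37 (limma unadjusted p = 0.00317, adjusted p = 0.294). Leaving out each library in turn gave -0.37 to -0.21, with limma unadjusted p-values of 0.00317 to 0.133, under 0.05 in 3 of the 10 fits.

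At 12-weeks Egr1 was the gene of the list whose OA and sham libraries did not overlap. It measured 9356, 9572, 8600.0 and 6634 in OA and 11368, 9769, 10789.6 and 10978 in sham, so the highest OA library lay just under the lowest sham library. The means were 8541 ± 1337 and 10726 ± 682 (SD, n = 4 each), and the log2 difference was -0.34 (95% interval -0.60 to -0.081), SE 0.117, with a limma unadjusted p of 0.0152 and adjusted p of 0.332. Of all genes tested at this week, 3.44% had every OA library below every sham library and 6.62% had an unadjusted p under 0.05 and a lower level in OA. The adjusted p was 0.336 by edgeR and 0.182 by DESeq2. Leaving out each library in turn gave log2 differences of -0.40 to -0.22 and unadjusted p-values of 0.0107 to 0.0393, with the value nearest 0 without OA replicate 4.

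Marker levels of other cells also differed between these libraries, though limma called 0 of them. At this limit of an unadjusted p under 0.05, limma gave 5.75% of all genes higher in OA at 12-weeks and 6.62% lower. Of 8 fibroblast markers, 6 were higher in OA and 1 was lower at that limit. Their summed levels were 85104 to 110341 normalized reads in OA and 57707 to 88763 in sham, and none of the markers was at 0. The 5 endothelial markers summed to 28937 to 35239 in OA and 31666 to 46204 in sham, and the 15 macrophage markers to 204404 to 242410 in OA and 168764 to 238109 in sham. The summed levels of 5 skeletal muscle markers did not overlap, 976 to 1632 in OA and 697 to 866 in sham. All 5 were higher in OA, 2 at an unadjusted p under 0.05, and DESeq2 called 1, the muscle actin Acta1 (limma log2 difference 0.79, adjusted p = 0.265, DESeq2 adjusted p = 0.00461). Of 5 smooth muscle and pericyte markers 4 were lower in OA, 1 at an unadjusted p under 0.05, with sums of 8965 to 12846 in OA and 10351 to 16099.9 in sham. All 5 mast cell markers were lower, 0 at an unadjusted p under 0.05, with sums of 1290.2 to 2449 and 1646 to 3311, and the neutrophil markers summed to 1122 to 3478 and 1285 to 4396. The part of these markers in the Egr1 values was not tested.

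Egr2 at 12-weeks measured 1222, 1039.7, 865 and 722 in OA and 1147, 881, 1160.0 and 1178 in sham. OA replicate 1 was the highest of the 8 libraries and OA replicates 3 and 4 were the lowest, so the groups overlapped, and the log2 difference was -0.20 (95% interval -0.55 to 0.15) with a limma adjusted p of 0.599. It was -0.071 without OA replicate 4 (limma unadjusted p = 0.616, adjusted p = 0.929) and -0.32 without OA replicate 1 (limma unadjusted p = 0.0472, adjusted p = 0.399).

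Atf3, a stress-induced factor that often represses inflammatory genes, measured 9387, 11185, 6734, 9512 and 12033 in OA and 14554, 9299, 6259.7, 11932 and 9006 in sham at 4-weeks. Its highest and lowest libraries were both sham, replicates 1 and 3, and the log2 difference was -0.034 (95% interval -0.50 to 0.43). At 12-weeks it measured 17448, 14999, 14299 and 9535 in OA and 14083, 13559, 21406 and 18499.5 in sham. Sham replicates 3 and 4 were above every OA library, OA replicate 4 was below every sham library, and the log2 difference was -0.27 (95% interval -0.71 to 0.17) with a limma adjusted p of 0.579. It was -0.095 without OA replicate 4 and -0.39 without OA replicate 1.

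Ier2 encodes a nuclear protein induced by growth factors. It measured 5258, 6462, 5645, 4827 and 5704 in OA and 5755, 4940.0, 6192, 5165 and 5875 in sham at 4-weeks, with nearly equal means of 5579 ± 606 and 5586 ± 518 (SD, n = 5 each). At 12-weeks it measured 7581, 7462, 7491 and 6733 in OA and 7415, 7065, 8657 and 9411 in sham. Sham replicates 3 and 4 were above every OA library and the other 2 lay within the OA range. The log2 differences were -0.0033 (95% interval -0.21 to 0.21) at 4-weeks and -0.15 (95% interval -0.36 to 0.075) at 12-weeks.

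Dusp1, the MAP kinase phosphatase and the feedback arm of the list, measured 18422, 20363, 14348, 20211 and 19464 in OA and 21068, 15656, 18043, 21252 and 19960.5 in sham at 4-weeks. At 12-weeks it measured 27504, 27994, 28305 and 24146 and 26209.6, 28021, 26676 and 30859. A single OA library at each week, replicate 3 at 4-weeks and replicate 4 at 12-weeks, lay below every sham library. The log2 differences were -0.051 (95% interval -0.32 to 0.22) and -0.05 (95% interval -0.28 to 0.18).

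Whether OA minus sham differed between the weeks was tested by limma as an interaction over all 18 libraries, on log2 CPM of the recovered reads, scaled together by TMM. Of the 10 genes, 0 differed at an adjusted p under 0.05 (0% of 14732 genes) and 0 at an unadjusted p under 0.05 (3.18%). The difference was above 0 for 4 of the 10, Fos, Jun, Egr2 and Dusp1 (47% of all genes). The difference, 12-weeks minus 4-weeks, ranged from -0.20 for Atf3 (95% interval -0.86 to 0.45) to 0.13 for Fos (95% interval -0.20 to 0.45). For Egr1 it was -0.17 (95% interval -0.61 to 0.27), with an adjusted p of 0.956, so the larger Egr1 value at 12-weeks was not shown to differ from that at 4-weeks.

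On this common CPM scale, which divides reads by the size of the library, every one of the 10 genes had a higher mean at 12-weeks than at 4-weeks, in OA and in sham alike, against 32.1% of all genes. Fos averaged 2867 ± 287 CPM in 4-week OA, 3097 ± 169 in 4-week sham, 3477 ± 109 in 12-week OA and 3472 ± 443 in 12-week sham (SD, n = 5, 5, 4 and 4). Egr1 averaged 487 ± 43.7, 555 ± 130.2, 634 ± 96 and 792 ± 50.5 CPM in the same order, and Dusp1 1560.0 ± 210.4, 1637 ± 187, 2006 ± 129.6 and 2063 ± 153. The ratio of the 12-week to the 4-week mean ran from 1.10 for Jun to 1.48 for Egr2 in OA, and from 1.10 for Jun to 1.44 for Atf3 in sham. Only for Dusp1 did every 12-week library (at least 1814 CPM) lie above every 4-week library (at most 1804), against 0.563% of all genes. The order of the 4 group means was 4-week OA, 4-week sham, 12-week OA and 12-week sham from low to high for 8 of the 10 genes, with Jund and Fos as exceptions, and, taken in each gene's own order of means, neighbouring groups overlapped for all but the 12-week Egr1 groups and the step from 4-week sham to 12-week OA for Dusp1. For Fos, whose 12-week means were nearly equal, 4-week sham (at most 3228 CPM) also lay below 12-week OA (at least 3322), while 12-week sham overlapped both. Shares over all genes were not computed for the order of the group means or for the step from 4-week sham to 12-week OA. The weeks also differed in pool size and were separate tables, so the week cannot be told apart from these and no test was made.

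**Figure D3:**
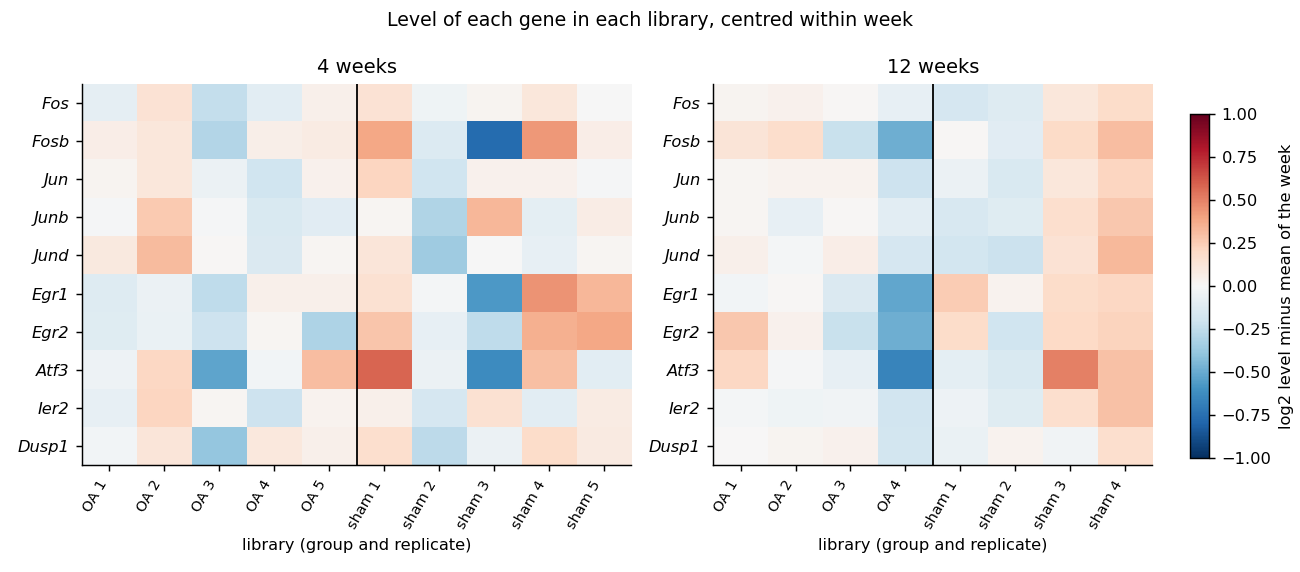
Log2 level of each gene in each library minus that gene's mean over the libraries of the week, at 4 weeks (left, 10 libraries) and 12 weeks (right, 8 libraries); red is above and blue below the mean, and the vertical line divides OA from sham. At 4 weeks sham 1 is above the mean for all 10 genes and sham 2 for 0, and at 12 weeks OA 4 is above for 0 and sham 4 for all 10.

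High and low values of the list gathered in single libraries. At 4-weeks sham replicate 1 was above the mean of the week for 10 of the 10 genes and sham replicate 2 for 0, though both were sham. OA replicate 3 was lowest of all libraries for Fos and Dusp1, with a median over the 10 genes of -0.22 on the log2 scale relative to the mean of the week. It also had the highest summed neutrophil markers of the week, 12295 normalized reads, whose part in these values was not tested. OA replicate 1 came next with 10870.3. Sham replicate 3, the library with fewest reads, was lowest for Fosb, Egr1 and Atf3 and highest for Junb.

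At 12-weeks OA replicate 4 was below the mean for 10 of the 10 genes and lowest of the 8 libraries for 7, namely Fosb, Jun, Egr1, Egr2, Atf3, Ier2 and Dusp1. Sham replicate 4 was above the mean for all 10 and highest for 7, namely Fos, Fosb, Jun, Junb, Jund, Ier2 and Dusp1. The medians over the 10 genes were -0.20 and 0.25 on the log2 scale. In the same order they held 12841781 and 12202582 reads, with summed levels of 242371 and 238109 normalized reads for macrophage markers, 85104 and 66108 for fibroblast markers, 28937 and 31666 for endothelial markers, 1590.5 and 3720 for neutrophil markers and 1290.2 and 2686 for mast cell markers. The part of these in the pattern was not tested. Within sham, replicates 3 and 4 were above replicates 1 and 2 for 8 of the 10 genes, all but Egr1 and Dusp1. Shares over all genes were not computed for this split or for the counts of lowest and highest libraries.

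**Figure D4:**
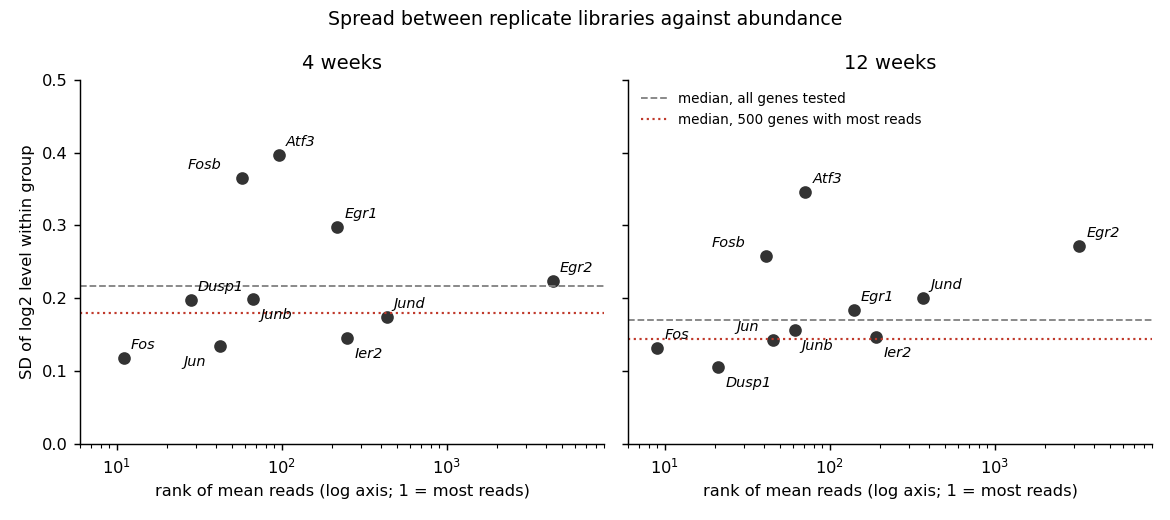
SD of the log2 level between libraries of a group, pooled over OA and sham, against the rank of the mean reads (log axis, 1 is the gene with most reads), at 4 weeks (left) and 12 weeks (right). Dashed and dotted lines give the median SD of all genes tested (0.216 and 0.170) and of the 500 genes with most reads (0.180 and 0.144). Atf3 and Fosb lie far above both lines at each week and Fos below them. At 4 weeks the SD of Fosb was 0.168 in OA alone and 0.489 in sham alone.

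The genes differed in how much they varied between libraries of the same group. The SD within groups was highest for Atf3, 0.397 at 4-weeks and 0.346 at 12-weeks on the log2 scale, where 80.4% and 82.6% of all genes tested had a smaller one. Fosb had 0.366 and 0.258 (77.4% and 71% smaller), Egr2 0.224 and 0.272 (52.2% and 73.1% smaller), and Egr1 0.299 and 0.184. At 4-weeks the SD in sham was above that in OA for Fosb (0.489 and 0.168) and Egr1 (0.401 and 0.131). That also held for Jun, Junb, Jund, Egr2 and Atf3. For Fos (0.080 and 0.148), Ier2 (0.135 and 0.156) and Dusp1 (0.185 and 0.209) it was below. Sham replicate 3, the library with fewest reads, was lowest for Fosb and Egr1, and the SD without it was not computed. Fos was steadier, with 0.119 and 0.132 (15.9% and 35.5% smaller), as were Jun with 0.134 and 0.143 and Ier2 with 0.146 and 0.147. From lowest to highest library the level of Atf3 changed 2.33-fold at 4-weeks and 2.24-fold at 12-weeks, that of Fos 1.30-fold and 1.28-fold. Over all 10 genes the median SD was 0.199 and 0.170, close to the 0.216 and 0.170 of all genes tested and above the 0.180 and 0.144 of the 500 genes with most reads.

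Over libraries the 10 genes correlated with each other at 12-weeks and in part at 4-weeks. Over the 45 pairs, the median Pearson r of the log2 levels was 0.41 at 4-weeks (10 libraries), from -0.45 for Junb with Egr1 to 0.90 for Fosb with Atf3, with 10 pairs below 0 and 4 above 0.8. Without sham replicate 3 the lowest value at 4-weeks was -0.14, for Jund with Egr1, and Junb with Egr1 was at -0.035. At 12-weeks (8 libraries) the median was 0.73, from 0.24 for Fos with Egr1 to 0.96 for Junb with Jund. Of the pairs, 0 were below 0 and 18 above 0.8. With group means removed the medians were 0.47 and 0.72, and without sham replicate 3 of the week 0.51 and 0.77. All pairs of a week share the same libraries and size factors, so they are a description. Pairs of other genes were not examined, so it is not known whether these values exceed theirs. At 12-weeks OA replicate 4 was lowest for 7 of the 10 genes and sham replicate 4 highest for 7. The 45 pairs were not computed without these libraries.

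Some pairs kept their place at both weeks. Junb with Ier2 had r = 0.87 and 0.93, Junb with Jund 0.73 and 0.96, Fosb with Atf3 0.90 and 0.88, Fosb with Egr1 0.88 and 0.84, and Egr1 with Egr2 0.81 and 0.84. Other pairs did not, such as Fosb with Junb at -0.39 and 0.59 and Egr1 with Ier2 at -0.32 and 0.65. Without sham replicate 3 their 4-week values were 0.20 and -0.066, so the negative values rest largely on that library, the one with fewest reads. These pairs were picked after their values were seen.

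**Figure D5:**
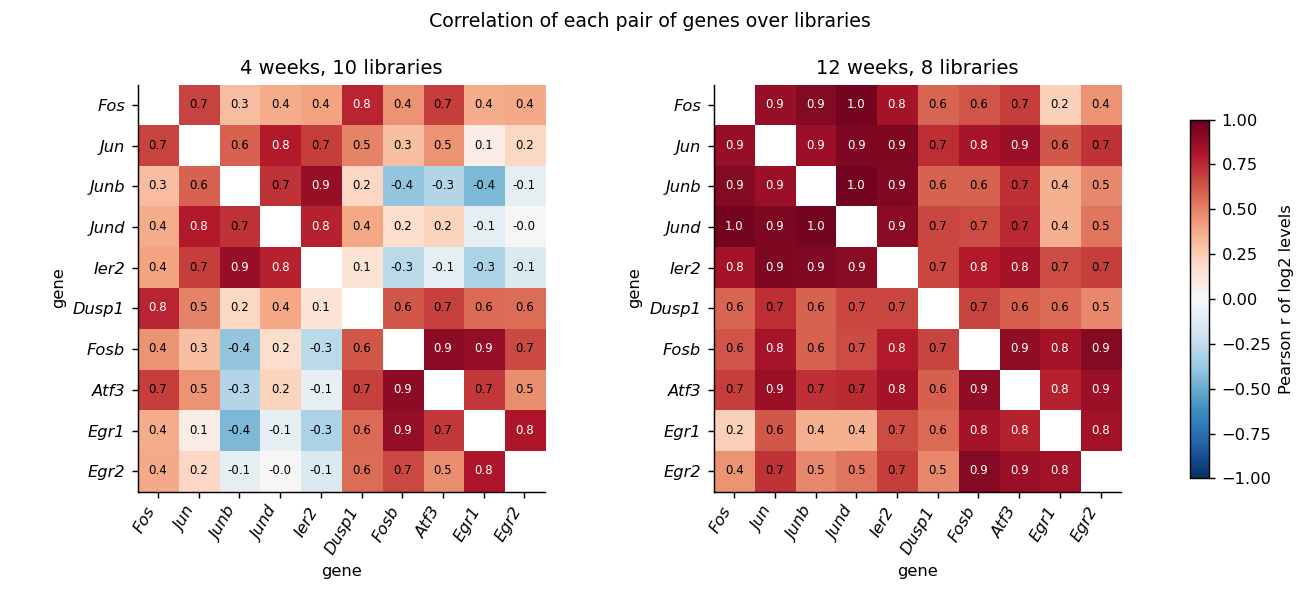
Pearson r of the log2 levels for each pair of genes, over 10 libraries at 4 weeks (left) and 8 libraries at 12 weeks (right), with the value rounded in each cell. At 4 weeks Jun, Junb, Jund and Ier2 correlate with each other (0.59 to 0.87) and have -0.45 to 0.078 with Egr1 (-0.14 to 0.21 without sham replicate 3), and at 12 weeks every pair is above 0.

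Of the chosen pairs, Fos with its partner Jun gave r = 0.67 at 4-weeks (permutation p = 0.0325, adjusted over the 6 values computed 0.065) and Spearman rho = 0.88 (permutation p = 0.00158, adjusted 0.00948). At 12-weeks r was 0.87 (exact permutation p = 0.00618, adjusted 0.0285) and rho 0.88 (exact permutation p = 0.00724, adjusted 0.0217). Without the 2 libraries farthest from the median of Fos, r was 0.72 and 0.93, so the relation did not rest on them. At 12-weeks OA replicate 4, the lowest library for Jun, was not among those left out.

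Fos with its feedback phosphatase Dusp1 gave r = 0.76 (permutation p = 0.00949, adjusted 0.0285) and rho = 0.70 (permutation p = 0.0311, adjusted 0.0622) at 4-weeks. Without OA replicate 3 and sham replicate 1, the libraries farthest from the median of Fos, r fell to 0.44. Leaving them out also narrows the range of Fos, so this does not show whether the relation rests on them. At 12-weeks r was 0.58 (exact permutation p = 0.121, adjusted 0.182), rho 0.43 (exact permutation p = 0.299, adjusted 0.359), and r without 2 libraries 0.20. Fos with Egr1 gave r = 0.37 (permutation p = 0.29, adjusted 0.348) and rho = 0.44 (permutation p = 0.203, adjusted 0.305) at 4-weeks, and r = 0.24 (exact permutation p = 0.589, adjusted 0.589) and rho = 0.10 (exact permutation p = 0.84, adjusted 0.84) at 12-weeks. Without the same pairs of libraries r for Fos with Egr1 was 0.18 and 0.51. Without sham replicate 3, r at 4-weeks was 0.59. A relation of Fos with Egr1 was not detectable over these libraries.

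The genes outside the list with the most similar pattern were ranked by the smaller of their r at 4-weeks and 12-weeks with the mean of the 10 genes, each centred, over 14410 genes compared. Sbno2, a transcriptional regulator of myeloid cells, had r = 0.92 at 4-weeks and 0.87 at 12-weeks. Csrnp1, itself an immediate early gene, had 0.86 and 0.85, and Srsf7, a splicing factor, 0.88 and 0.84. Cdkn1a, an inhibitor of cyclin-dependent kinases, had 0.83 and 0.91, and Gdap1 0.88 and 0.83. These are descriptions over 10 and 8 libraries, in which genes share the library and its size factor.

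Other genes of the same response were taken from chosen lists. Of 36 other immediate early genes tested, 0 were called by limma at either week. At 4-weeks 18 were higher in OA and 18 lower, and at an unadjusted p under 0.05 limma gave 3 higher (4.1% of all genes) and 0 lower (3.82%). These were Cebpb, a factor of myeloid differentiation (0.48 on the log2 scale, adjusted p = 0.611), Klf2, a factor that restrains inflammation (0.32, adjusted p = 0.607), and Rhob (0.19), the last named after its value was seen.

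At 12-weeks 7 of these 36 genes were higher in OA and 29 lower, against 52.5% of all genes lower, and their median log2 difference was -0.17. These genes too were measured in the same libraries, so their signs are not independent results. Summed over the list, OA replicate 4 held 120194 normalized reads. The other OA libraries held 147483 to 160101 and the sham libraries 147958 to 182407. At an unadjusted p under 0.05, 4 were lower (6.62% of all genes) and 1 was higher (5.75%). Nfil3, a leucine zipper factor, measured 880.5 to 1194 normalized reads in OA and 1210.1 to 1718 in sham (-0.34, adjusted p = 0.361). Its groups did not overlap (3.44% of all genes with OA lower). Dusp2, another MAP kinase phosphatase, had no overlap in the other direction (2.85% of all genes), with 353 to 447 in OA and 262 to 343 in sham (0.37, adjusted p = 0.28). The values farthest from 0 were those of Myc, a growth regulator (-0.50, adjusted p = 0.411), and Gadd45b, a stress response gene (-0.44, adjusted p = 0.352). Dusp5 (-0.38) and Zfp36l1 (-0.37) also had an unadjusted p under 0.05 and were named after their values were seen.

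The kinases and factors upstream of these genes were tested next. Of 20, 0 were called by limma at either week. At an unadjusted p under 0.05 there were 0 at 4-weeks (7.92% of all genes) and 1 at 12-weeks (12.4%), Map2k7, a kinase of the JNK pathway (-0.19, adjusted p = 0.325). The OA and sham libraries did not overlap for Mapk14, a p38 kinase, at 4-weeks (0.17, OA higher, 1.18% of all genes), nor for Map2k7 and Rps6ka5, a kinase downstream of MAP kinases (-0.13), at 12-weeks (both OA lower, 3.44%). The values farthest from 0 at 4-weeks were those of Rps6ka3 (0.29, adjusted p = 0.717) and Elk4 (0.22, adjusted p = 0.777). Elk4, a partner of SRF, was at -0.13 at 12-weeks. At 4-weeks Rps6ka3 measured 1462 to 3568 normalized reads in sham and 3188 to 3468 in OA. Elk4 measured 1172 to 2789 in sham and 2458 to 2890 in OA. The list summed to 15848 in sham replicate 3, the library with fewest reads, and to 23230 to 25113 in the other libraries of that week. The part of this library was not tested.

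Of 13 partners of AP-1 and ATF factors, 0 were called by limma at either week, with 1 under an unadjusted p of 0.05 at 4-weeks (7.92% of all genes) and 2 at 12-weeks (12.4%). Maf, a factor of resident macrophages, was at 0.35 at 4-weeks (unadjusted p = 0.00876, adjusted p = 0.544), and Mafg at 0.27. At 12-weeks Atf7 was at -0.30 (adjusted p = 0.351), Batf3 at -0.32, and Jdp2, named after its value was seen, at 0.25 (adjusted p = 0.314).

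Of 13 heat shock genes, which respond to stress of the cell, 0 were called by limma at either week. Hsph1, a chaperone, had the largest value at both. At 4-weeks it was at 0.50, with 971 to 3469 normalized reads in OA and 532 to 2036 in sham, and Hspa1b was at 0.20. At 12-weeks Hsph1 measured 1134 to 1437 in OA and 938 to 1025 in sham, with no overlap (2.85% of all genes with OA higher). Its log2 difference of 0.36 had a limma unadjusted p of 0.000942 and adjusted p of 0.265, and a DESeq2 adjusted p of 0.0187, but lay under the fold limit of 0.5. Hspb1 was at -0.24, and 1 of the 13 genes was under an unadjusted p of 0.05 at this week (12.4% of all genes) and 0 at 4-weeks (7.92%).

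Of 17 rapid inflammatory genes tested, 0 were called by limma at either week, and 0 at 4-weeks (7.92% of all genes) and 1 at 12-weeks (12.4%) were under an unadjusted p of 0.05. The latter was Ptgs2, which makes prostaglandins (-0.37, adjusted p = 0.378), named after its value was seen. The cytokines Il1b and Ccl3 were at 0.32 and 0.31 at 4-weeks, and Il10 and Il1a at -0.62 and 0.56 at 12-weeks, with limma adjusted p-values of 0.787, 0.798, 0.411 and 0.557. Their libraries varied widely within groups, Il1b from 898 to 3521 normalized reads in 4-week sham alone.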

How the data were processed

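RNA of CD11b/c+ synovial cells was sequenced in 18 libraries, grouped by surgery and week from the sample labels, with replicate numbers that name pools of different rats. RNA with integrity numbers of 7.8 to 9.3 was used. According to the paper and the submitters' processing notes, reads were checked with fastp 0.20.0, aligned to Rnor_6.0 with STAR 2.7.6a, cleared of duplicates with Sambamba, counted per gene with featureCounts 2.0.0 and normalized with DESeq2 1.24.0 within each week. Removing duplicates can lower genes with very many reads, and its effect was not tested. The authors deposited the result as normalized reads, a signal with no values below 0. In each library 100% of the values were whole multiples of what a single read is worth (tolerance 0.01), so reads could be recovered. The deposited tables also hold the authors' own comparison (log2 fold changes, p-values and Wald statistic), which was not used.

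OA was compared with sham per week in limma 3.58.1 (R 4.3.3) with a mean-variance trend, on log2(normalized reads + 1), for genes with a mean of at least 10, with Benjamini-Hochberg adjustment over all genes tested. This scale understates the change of low genes. The difference between weeks was an interaction in limma on log2 CPM of recovered reads (TMM, prior count 2). Alternatives were edgeR 4.0.16, DESeq2 1.42.0, TMM, pseudocounts of 0.5 and 5, filters of any read or a mean of 50, a prior count of 0.5, DESeq2 size factors for the difference between weeks, a replicate block, no fold limit and leaving out each library. Correlations used permutation tests with 100000 draws, exact over 8 libraries, in scipy 1.17.1, with numpy 2.4.6 and pandas 2.3.3 under Python 3.11.15. The fits were also run on simulated reads in which 200 genes changed by more than any of the 10 genes did here. Those runs therefore do not show how the fits treat changes as small as these.

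Between libraries of a group, chi-square per degree of freedom was 5.39 to 35.0, far above sampling noise, and none was treated as a repeat of another. The p-values measure the spread between pools. The 10 genes, the lists and the markers were chosen with earlier results of these data known. Beside the 10 genes, those named from each list were called, did not overlap between groups or had the 2 largest log2 differences at a week, the 5 genes most alike in pattern were also named, and others are marked as named later. Of the lists, Egr4, Tnf and Mapk7 had means under 10, and Mcl1, Mkl1, Mkl2 and Hspa1a were not analysed here.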

Additional observations from a re-analysis of the deposited data

Results flagged for a closer look

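Each of the 40 sets of libraries, a gene in a group, was examined for a library far from the others, by the gap to the nearest library divided by the range of the set. Chance marks about 1 in 20 such sets, and 4 of the 40 were marked. Fosb in 4-week OA replicate 3 measured 10891 normalized reads, while the other 4 OA libraries held 13890.5 to 14438. Jun in 12-week OA replicate 4 measured 17736, while the other 3 held 20743 to 20994. Ier2 in the same library measured 6733, while the other 3 held 7462 to 7581. Egr2 in 12-week sham replicate 2 measured 881, while the other 3 held 1147 to 1178.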

How the results depend on the processing

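Over the alternatives, 0 of 580 values of the 10 genes reached an adjusted p under 0.05 (the smallest was 0.182, Egr1 at 12-weeks by DESeq2), and 58 turned direction, none larger than 0.183 on the log2 scale. Of the 10 genes Egr2 had the fewest reads, and the shallowest library, sham replicate 3 at 4-weeks, held 4662344 reads in all.

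Over all genes, limma called 0 at each week. At 4-weeks TMM scaling called 1, DESeq2 27, and leaving out a library 0 to 1, the 1 without sham replicate 3. At 12-weeks DESeq2 called 98, and leaving out a library 0 to 81, the 81 without sham replicate 3 and 1 without sham replicate 4. The cause was not tested. For the difference between weeks every alternative called 0.

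With a replicate block 1 gene was called at 4-weeks and 0 at 12-weeks. Deviations of libraries with the same number from their group means correlated at r = -0.131 to 0.0803 at 4-weeks and -0.0264 to 0.298 at 12-weeks, and not every library correlated best with its own number, so the numbers were not taken to pair them.

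Under TMM scaling at 4-weeks Jun was at 0.018, Junb 0.040, Atf3 0.017, Ier2 0.047 and Dusp1 8.7e-05. The median of all genes was 0.078 under this scaling and 0.028 in the main fit. Fosb was at -0.064 by edgeR and -0.045 by DESeq2 at 4-weeks, and Fos at -0.0068 by DESeq2 at 12-weeks. The difference between weeks of Junb was 0.0018 at a mean of at least 50. The cause was not tested.

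Leaving out each library in turn gave at 4-weeks -0.18 to 0.12 for Fosb, -0.087 to 0.017 for Jun, -0.088 to 0.070 for Junb, -0.20 to 0.11 for Atf3, -0.058 to 0.047 for Ier2 and -0.12 to 0.039 for Dusp1. At 12-weeks it gave -0.057 to 0.063 for Fos, -0.12 to 0.0023 for Jun, -0.11 to 0.066 for Jund and -0.080 to 0.0025 for Dusp1. For the difference between weeks it gave -0.28 to 0.0096 for Fosb, -0.055 to 0.067 for Jun, -0.12 to 0.043 for Junb, -0.017 to 0.23 for Egr2 and -0.059 to 0.11 for Dusp1. Without a change of direction it gave -0.14 to -0.045 for Fos, 0.047 to 0.17 for Jund, -0.30 to -0.040 for Egr1 and -0.37 to -0.21 for Egr2 at 4-weeks, and -0.15 to -0.0032 for Junb and -0.21 to -0.072 for Ier2 at 12-weeks, where the value nearest 0 of both was without sham replicate 4.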
